A study of Mus musculus with 6 samples.

Results

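The 10 genes described here are Gzma, Gzmb, Prf1, Nkg7, Klrd1, Ncr1, Cd3e, Cd4, Cd8a and Cd28, which are used as markers of T cells and natural killer (NK) cells. They were chosen by name, and all 10 were found among the 24061 gene rows of a count table from bulk RNA sequencing of whole mouse lung. The table compares 3 libraries from lungs of genotype CCSP/- with 3 libraries from lungs of genotype CCSP/TGFalpha, and the mice of both groups were given doxycycline for 3 weeks. CCSP stands for club cell secretory protein. Its promoter is a common means of placing a doxycycline-dependent activator in lung epithelium, and the controls carry the CCSP component too. TGFalpha is a ligand of the epidermal growth factor receptor. Strain, age and sex, and whether each library came from its own animal, are not given in the sources used here, and the p-values therefore reflect no more than the spread among these libraries, which may be technical.

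T cells recognise antigen through a receptor whose signal is carried by the CD3 chains, with CD4 or CD8 as coreceptor and CD28 as the receptor for costimulation. NK cells use a mixed set of activating and inhibitory receptors, among them NKp46, which Ncr1 encodes, and CD94, which Klrd1 encodes. Both NK cells and cytotoxic T cells kill through granules that hold perforin and granzymes. The lung holds both cell types in its blood vessels as well as in its tissue. In mice some dendritic cells also carry CD4 or CD8, and mast cells can make granzyme B.

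In CCSP/TGFalpha lungs all 10 genes had a fitted level below that of the control lungs, but none passed the test across all genes. In edgeR's quasi-likelihood test over 16089 genes, 0 of the 10 were called at a Benjamini-Hochberg adjusted p under 0.05, against 8.33% of all genes tested. At an unadjusted p under 0.05, 4 of the 10 were lower (Gzma, Prf1, Nkg7 and Cd28), against 12.8% of all genes. For the same 4 genes every CCSP/TGFalpha library lay below every control library, against 15.5% of all genes. A fold change below 0 on the log2 scale was found for 49.1% of all genes. DESeq2 called 3 of the 10 (Gzma, Prf1 and Cd28, all lower), in a fit that called 7.30% of all genes lower. limma-voom called 0 of the 10, against 3.72% of all genes called lower, with 5 of the 10 lower at an unadjusted p under 0.05 against 13.5% of all genes. The summed level of the 10 genes was 104 to 170 CPM in controls against 62.3 to 101 CPM in CCSP/TGFalpha lungs. The median log2 fold change was -0.79 over the 10 genes and 0.01 over all genes tested. In bulk tissue, fewer cells of a type and less RNA per cell cannot be told apart.

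The libraries held 21479006 to 24914322 counts each, so that 1 count was worth 0.0401 to 0.0458 CPM (counts per 1e6 of the scaled library size). Each of the 10 genes had at least 41 counts in every library. Skeletal muscle transcripts set 2 libraries apart: the summed level of 10 muscle genes was 1492 CPM in control replicate 1 and 2712 CPM in CCSP/TGFalpha replicate 1, and 53.6 to 76.3 CPM in the other 4. Results are therefore also given without these 2 libraries. The mouse Tgfa row did not separate the groups (25.8 CPM on average in controls against 27.5 CPM in CCSP/TGFalpha lungs, edgeR adjusted p = 0.739), and the labels do not say whether the transgene would be counted there. The lung epithelial marker Sftpc was at 3453 CPM or more in every library.

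**Figure D1:**
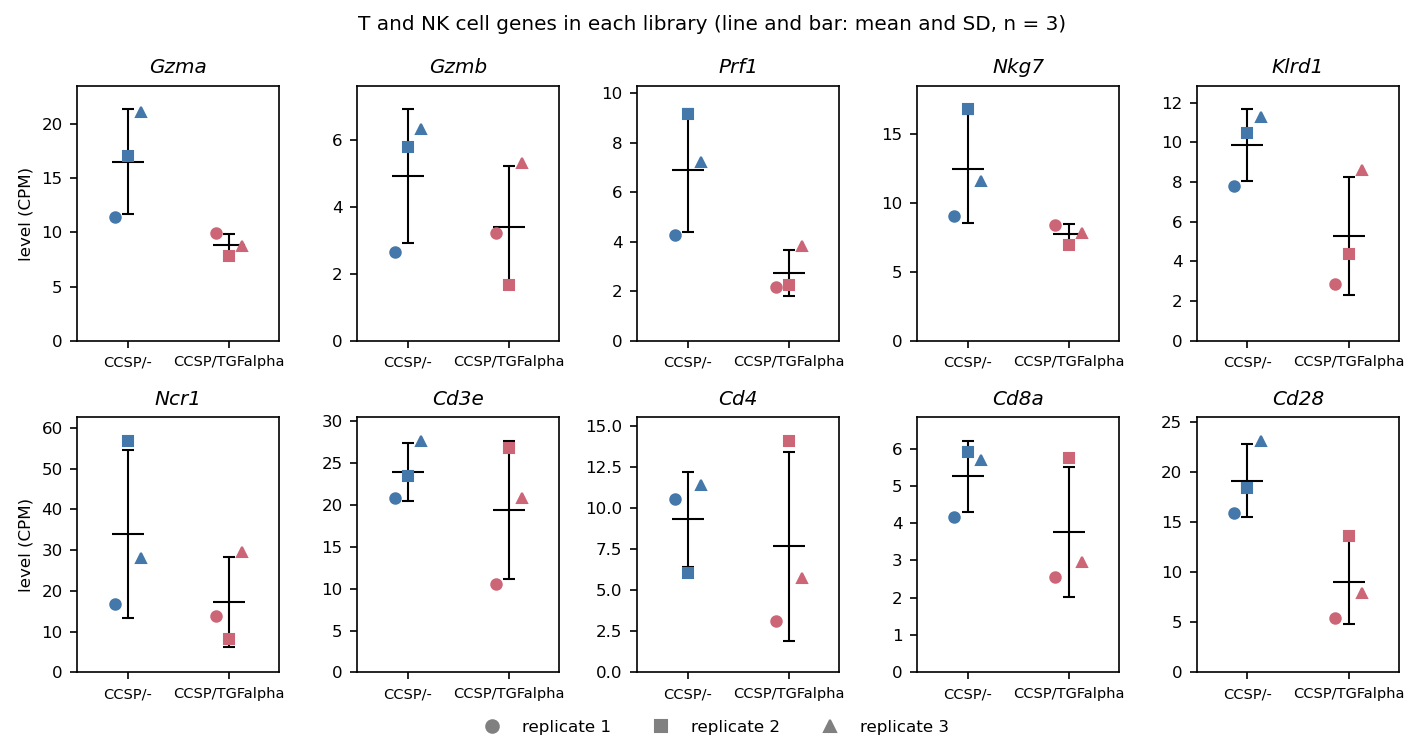
Level of each gene in CPM (vertical axis, from 0) in the 3 CCSP/- and the 3 CCSP/TGFalpha libraries; symbols mark the replicate number, and the line and bar give mean and SD. For Gzma, Prf1, Nkg7 and Cd28 the CCSP/TGFalpha points lie below all control points, while for the other 6 genes the groups overlap.

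Gzma and Gzmb encode granzymes A and B, serine proteases that enter the target cell. Prf1 encodes perforin, which forms the pore, and Nkg7 encodes a membrane protein of cytotoxic granules. On GRCm38.p6, Gzma (gene ID 14938) lies at chr13:113093824-113100981 and Gzmb (14939) at chr14:56258836-56262334, both on the minus strand. Prf1 (18646) lies at chr10:61297751-61304684 and Nkg7 (72310) at chr7:43437138-43438246, both on the plus strand. The sequences before the starts of Gzma, Prf1 and Gzmb, and of the NK receptor gene Ncr1, are shown because these genes share a short motif there. They are RefSeq sequences on GRCm38.p6, 5′ to 3′ on the strand of the gene, at chr13:113100982-113101231 (minus strand), chr10:61297586-61297750 (plus strand), chr14:56262335-56262584 (minus strand) and chr7:4337465-4337714 (plus strand). Capitals mark each match to the RUNX motif TGTGGT on either strand.
Gzma: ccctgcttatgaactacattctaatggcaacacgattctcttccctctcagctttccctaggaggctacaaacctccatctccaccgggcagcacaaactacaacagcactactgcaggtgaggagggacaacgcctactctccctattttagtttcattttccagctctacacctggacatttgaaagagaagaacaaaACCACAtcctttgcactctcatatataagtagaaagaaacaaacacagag
Prf1: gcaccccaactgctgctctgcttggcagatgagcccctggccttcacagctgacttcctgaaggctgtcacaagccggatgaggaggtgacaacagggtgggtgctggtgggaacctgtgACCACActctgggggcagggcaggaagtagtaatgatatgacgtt
Gzmb: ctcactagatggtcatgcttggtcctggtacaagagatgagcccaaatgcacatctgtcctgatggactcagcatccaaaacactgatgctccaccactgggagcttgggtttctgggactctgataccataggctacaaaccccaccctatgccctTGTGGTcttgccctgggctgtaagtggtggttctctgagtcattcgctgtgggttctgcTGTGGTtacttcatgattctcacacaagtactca
Ncr1: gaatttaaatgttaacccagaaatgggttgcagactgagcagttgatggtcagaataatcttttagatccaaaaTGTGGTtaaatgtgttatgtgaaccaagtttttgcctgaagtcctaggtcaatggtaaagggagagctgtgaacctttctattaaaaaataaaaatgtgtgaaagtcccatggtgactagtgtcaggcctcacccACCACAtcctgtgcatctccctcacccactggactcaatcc
A window of 250 bases before a start was on hand for 7 of the 10 genes. The RUNX motif TGTGGT was found in the windows of 5 of 5 granule and NK receptor genes (Gzma, Gzmb, Prf1, Nkg7 and Ncr1) and in those of 0 of 2 T cell genes (Cd3e and Cd8a). Of all 32851 windows of the same length, 14.0% held it. The ETS core GGAA was found for 5 of the 7 genes and in 93.4% of all windows, the T-box motif AGGTGTGA for Nkg7 alone (1.12% of all windows) and the AP-1 motif TGACTCA for Gzmb alone (4.46%). All 4 motifs were searched on both strands, and none contains another. A match describes letters in a window and does not show that a factor binds there. The motif also did not set apart the genes whose groups separated, since Gzmb and Ncr1 hold it and their groups overlapped.

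Gzma was at 11.4, 17.0 and 21.1 CPM in control replicates 1 to 3 and at 9.94, 7.85 and 8.71 CPM in CCSP/TGFalpha replicates 1 to 3. The CCSP/TGFalpha libraries lay close together and below all controls, with control replicate 1 the nearest to them. The mean was 16.5 ± 4.84 CPM (SD, n = 3) in controls against 8.83 ± 1.05 CPM in CCSP/TGFalpha lungs, 1.87-fold lower in the fit (log2 fold change -0.90 ± 0.25, SE; edgeR adjusted p = 0.0631). The fold change had a 95% interval of -1.47 to -0.33. With single libraries left out the edgeR adjusted p ran from 0.0294 to 0.230. The gene passed when control replicate 1 was left out (log2 fold change -1.12, edgeR adjusted p = 0.0294) and when both libraries with muscle transcripts were left out (-1.21, adjusted p = 0.0484).

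Prf1 had the lowest fitted fold change of the 10 genes. It was at 4.25, 9.16 and 7.21 CPM in the controls and at 2.17, 2.26 and 3.81 CPM in the CCSP/TGFalpha libraries, in order of replicate. No value of one group reached into the other, although CCSP/TGFalpha replicate 3 came near control replicate 1. The fit gave a level 2.5-fold lower in CCSP/TGFalpha lungs (log2 fold change -1.32 ± 0.38, SE; edgeR adjusted p = 0.0692; 95% interval -2.19 to -0.45). Without control replicate 1 it passed (-1.58, adjusted p = 0.0441), with up to 0.213 in the other single-library fits, and without both libraries with muscle transcripts it did not (-1.43, adjusted p = 0.0904).

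Nkg7 was at 9.07, 16.8 and 11.6 CPM in the controls and at 8.41, 6.90 and 7.79 CPM in the CCSP/TGFalpha libraries. The groups did not overlap, but control replicate 1 and CCSP/TGFalpha replicate 1 differed by less than 1 CPM, and the log2 fold change was -0.70 ± 0.26 (SE; edgeR adjusted p = 0.132). Gzmb was at 2.65, 5.82 and 6.34 CPM in the controls and at 3.23, 1.68 and 5.32 CPM in the CCSP/TGFalpha libraries. Its groups overlapped, with control replicate 1 below 2 of the 3 CCSP/TGFalpha libraries, and the interval of its log2 fold change included both signs (-0.53, 95% interval -1.64 to 0.58; edgeR adjusted p = 0.513). Without both libraries with muscle transcripts the log2 fold changes of Nkg7 and Gzmb were -0.95 and -0.79 (edgeR adjusted p = 0.114 and 0.469).

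Neither NK receptor gene passed, and the groups overlapped for both. On the plus strand of GRCm38.p6, Klrd1 (gene ID 16643) lies at chr6:129588092-129598775 and Ncr1 (17086) at chr7:4337715-4345184. Klrd1 was at 7.82, 10.5 and 11.3 CPM in the controls and at 2.89, 4.40 and 8.62 CPM in the CCSP/TGFalpha libraries. The controls lay close together, and CCSP/TGFalpha replicate 3 alone reached their range. The log2 fold change was -0.89 ± 0.39 (SE; edgeR adjusted p = 0.189). It passed without CCSP/TGFalpha replicate 3 (-1.44, adjusted p = 0.0465), was -0.60 without CCSP/TGFalpha replicate 1 (0.389) and was -0.74 without both libraries with muscle transcripts (0.311). Ncr1 was at 16.8, 56.9 and 28.1 CPM in the controls and at 13.9, 8.22 and 29.5 CPM in the CCSP/TGFalpha libraries. Control replicate 2 stood well above the rest, and CCSP/TGFalpha replicate 3 lay above 2 of the 3 controls. The log2 fold change of Ncr1 was -0.98 ± 0.53 (SE; edgeR adjusted p = 0.277), and it ran from -1.62 to -0.38 with single libraries left out, and was -1.17 without both libraries with muscle transcripts.

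The T cell receptor and coreceptor genes overlapped between the groups and spread widely within the CCSP/TGFalpha group. Cd3e (gene ID 12501; chr9:44998735-45009663, minus strand of GRCm38.p6) encodes the epsilon chain of CD3, the signalling part of the T cell receptor. It was at 20.8, 23.5 and 27.6 CPM in the controls and at 10.6, 26.9 and 20.9 CPM in the CCSP/TGFalpha libraries. CCSP/TGFalpha replicate 1 was lower than any control, while replicates 2 and 3 lay within the control range. The log2 fold change was -0.30 ± 0.31 (SE; 95% interval -1.01 to 0.41; edgeR adjusted p = 0.567), and it came to -0.00 without CCSP/TGFalpha replicate 1. Annotated exons of an antisense gene, Gm48719, cover 3.3% of the exon bases of Cd3e, and no other of the 10 genes shared exon bases with another gene in GENCODE M21.

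Cd4, the coreceptor gene of helper T cells (gene ID 12504; chr6:124864693-124888247, minus strand of GRCm38.p6), was at 10.6, 6.05 and 11.4 CPM in the controls and at 3.14, 14.1 and 5.78 CPM in the CCSP/TGFalpha libraries. The highest and the lowest of the 6 values were both in the CCSP/TGFalpha group. The log2 fold change was -0.28 ± 0.51 (SE; edgeR adjusted p = 0.756), and its sign turned without CCSP/TGFalpha replicate 1 (0.09) and without both libraries with muscle transcripts (0.18). Cd8a, the coreceptor gene of cytotoxic T cells (gene ID 12525; chr6:71373427-71379171, plus strand), was at 4.17, 5.91 and 5.70 CPM in the controls and at 2.55, 5.75 and 2.97 CPM in the CCSP/TGFalpha libraries. Here too replicate 2 reached the control level and the other two did not (log2 fold change -0.48 ± 0.37, SE; edgeR adjusted p = 0.432).

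Cd28, the costimulation receptor gene (gene ID 12487; chr1:60746388-60773359, plus strand of GRCm38.p6), had groups that did not overlap. It was at 16.0, 18.4 and 23.2 CPM in the controls and at 5.48, 13.6 and 7.91 CPM in the CCSP/TGFalpha libraries. All 3 CCSP/TGFalpha libraries were below the controls, with replicate 2 again the highest of them. The mean was 19.2 ± 3.67 CPM (SD, n = 3) against 9.01 ± 4.19 CPM, 2.13-fold lower in the fit (log2 fold change -1.09 ± 0.33, SE; edgeR adjusted p = 0.079; 95% interval -1.84 to -0.34). It passed without CCSP/TGFalpha replicate 2 (-1.52, adjusted p = 0.0367), with up to 0.249 in the other single-library fits, and did not without both libraries with muscle transcripts (-0.95, adjusted p = 0.136).

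**Figure D2:**
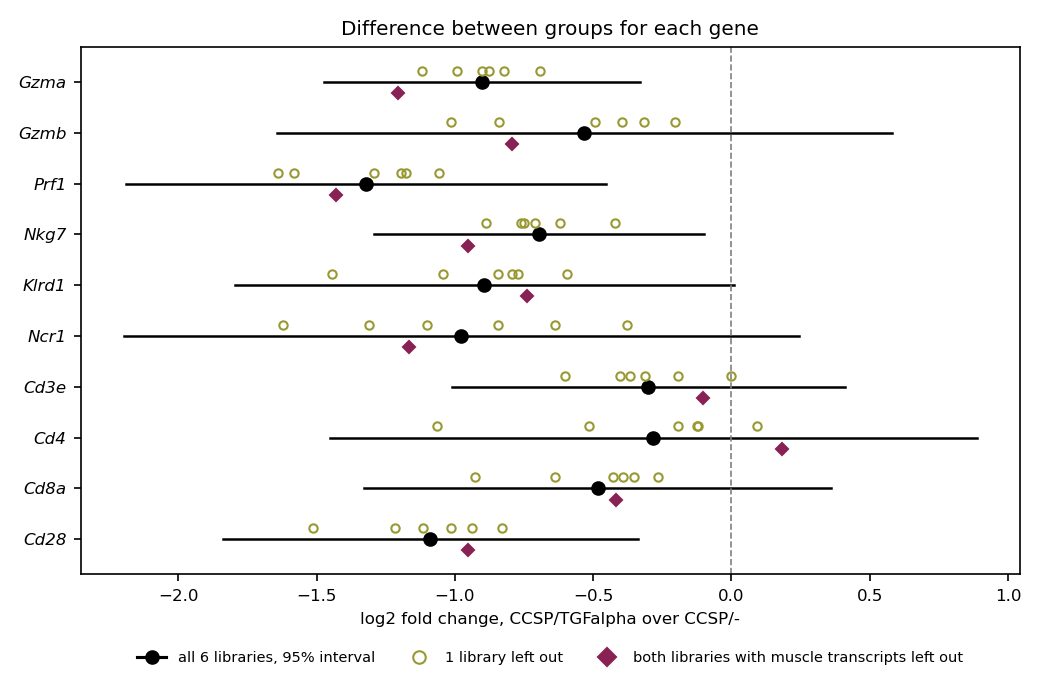
Log2 fold change of each gene, CCSP/TGFalpha over CCSP/- (horizontal axis): black points and lines give the fit of all 6 libraries with its 95% interval, open circles the fits with 1 library left out, and diamonds the fit without both libraries with muscle transcripts. All points but 2 of Cd4 (0.09 and 0.18) lie below 0, and the intervals of Gzma, Prf1, Nkg7 and Cd28 stay below 0 before adjustment over all genes.

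Per kilobase of exon, Ncr1, Gzma and Nkg7 were the most abundant of the 10 in both groups. In controls the order was Ncr1 (22.0 ± 13.4 CPM per kb; SD, n = 3), Gzma (16.4 ± 4.81), Nkg7 (13.6 ± 4.29), Klrd1 (7.70 ± 1.41), Cd3e (5.87 ± 0.838), Gzmb (3.44 ± 1.39), Cd28 (3.13 ± 0.599), Prf1 (2.66 ± 0.956), Cd4 (2.32 ± 0.716) and Cd8a (1.45 ± 0.261). The control ranges of neighbours in this order overlapped except between Nkg7 and Klrd1 and between Cd3e and Gzmb, so that most single steps of the order lie within the spread of the libraries. In CCSP/TGFalpha lungs these 3 genes were at 11.2 ± 7.16, 8.78 ± 1.04 and 8.42 ± 0.828 CPM per kb, and Cd8a was last at 1.03 ± 0.479. Exon lengths were taken as the union of annotated exons, from 914 bases for Nkg7 to 6122 for Cd28, and a gene whose shorter transcript is the one in use is understated on this scale.

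Ratios within a library need no scaling between libraries. The log2 ratio of Cd4 to Cd8a was 0.79 ± 0.68 in controls and 0.85 ± 0.50 in CCSP/TGFalpha lungs (SD, n = 3; 2-sided exact permutation p = 1). The log2 ratio of Ncr1 to Cd3e, an NK gene over a T cell gene, was 0.33 ± 0.84 in controls and -0.27 ± 1.24 in CCSP/TGFalpha lungs (SD, n = 3; exact permutation p = 0.6), with CCSP/TGFalpha replicate 2 lowest at -1.71. The log2 ratio of Cd3e to Ptprc, the gene of the leukocyte antigen CD45, was -3.55, -3.14 and -3.16 in controls and -3.06, -2.90 and -2.68 in CCSP/TGFalpha lungs. All 3 CCSP/TGFalpha values of this last ratio were above the controls, a difference of 0.41 (exact permutation p = 0.1, the smallest that 3 against 3 allows; 0.3 adjusted over the 3 ratios). Ptprc itself went from 233 ± 22.6 to 141 ± 56.3 CPM without passing (log2 fold change -0.73, edgeR adjusted p = 0.134). It had the smallest adjusted p of 10 all-leukocyte genes, whose median log2 fold change was -0.29, near that of Cd3e (-0.30). The ratio therefore depends on the choice of Ptprc, and does not give the T cell share of leukocytes.

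The order of the CCSP/TGFalpha libraries differed between the few T cell genes and the few granule and NK genes among the 10, but not between the longer lists of the same kinds. Relative to the mean of the controls, the mean log2 level of Cd3e, Cd4 and Cd8a was -1.22, 0.32 and -0.54 in CCSP/TGFalpha replicates 1 to 3. The same measure was -0.82, -1.18 and -0.52 for the 4 granule genes and -1.41, -1.49 and -0.10 for Klrd1 and Ncr1. By these means replicate 2 was the highest of its group for the 3 T cell genes and the lowest for the granule and NK receptor genes, although Prf1 and Klrd1 themselves were lowest in replicate 1. On the longer lists, replicate 1 was the lowest and replicate 2 the highest of the group throughout: -0.77, 0.09 and -0.32 for 20 T cell receptor genes, -0.97, -0.38 and -0.50 for 23 NK receptor genes, and -0.71, -0.19 and -0.50 for 14 other granule genes. Of the 6 libraries, CCSP/TGFalpha replicate 1 was the lowest for 6 of the 10 genes and replicate 2 for the other 4, against 25.4% and 13.7% of all genes tested.

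**Figure D3:**
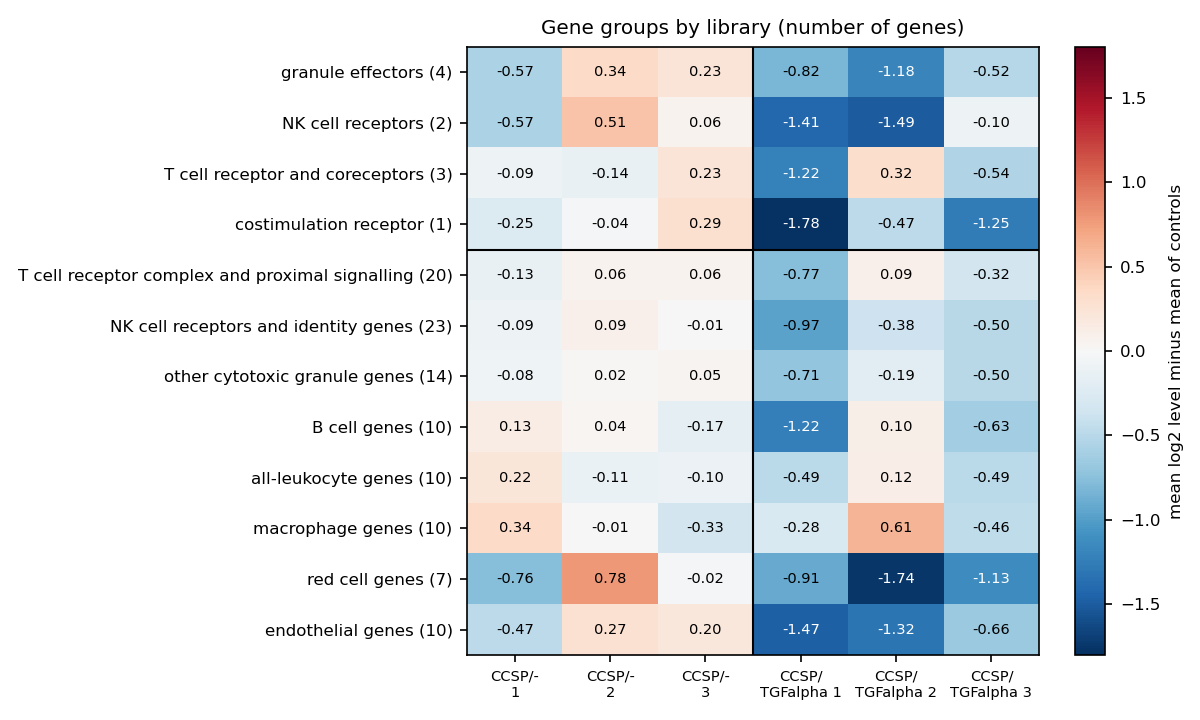
Mean log2 level of each gene group relative to the control mean (colour and number in each cell; rows are gene groups with their number of genes, columns are libraries). CCSP/TGFalpha replicate 2 is at 0.32 for the T cell receptor and coreceptor genes and at -1.18 and -1.49 for the 4 granule and 2 NK receptor genes among the 10, and at -0.38 for the longer NK receptor list.

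Other genes of the T and NK cell programmes were taken from 6 lists with 124 genes, of which all but Zfp683 were matched and 112 were tested. In edgeR's test 8 of the 112 fell (7.14%, against 3.29% of all genes tested) and 0 rose (against 5.03%). At an unadjusted edgeR p under 0.05, 27 of the 112 were lower (against 12.8% of all genes) and 1 was higher (against 2281 of 16089 genes). The median log2 fold change was -0.43, and 30 of the 112 (26.8%, against 15.5% of all genes) had all CCSP/TGFalpha libraries below all controls. Without both libraries with muscle transcripts, Klf2 and Ccl21a alone of the 8 still passed.

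Of 20 genes of the T cell receptor complex and its proximal signalling, none passed in edgeR's test, and the median log2 fold change was -0.40. At an unadjusted edgeR p under 0.05, 3 were lower (against 12.8% of all genes) and 1 was higher (against 2281 of 16089 genes). Of the 20, 16 had a fold change below 0 (against 49.1% of all genes). All CCSP/TGFalpha libraries lay below all controls for 3 of the 20, a count near the share of 15.5% over all genes. These 3 were the CD3 zeta chain gene Cd247, at 19.7 ± 0.571 and 15.2 ± 3.21 CPM in controls and in CCSP/TGFalpha lungs, the CD8 beta chain gene Cd8b1, at 7.53 ± 1.85 and 4.71 ± 0.472 CPM, and the kinase gene Zap70, at 5.62 ± 0.399 and 3.91 ± 0.355 CPM (edgeR adjusted p = 0.252, 0.153 and 0.215). The other CD3 chains gave 14.5 ± 2.43 and 10.7 ± 4.34 CPM for Cd3g and 4.42 ± 1.05 and 4.59 ± 0.396 CPM for Cd3d, in controls and CCSP/TGFalpha lungs. Lck, the kinase that starts the signal, was at 41.6 ± 6.15 and 41.4 ± 10 CPM. The smallest adjusted p in the list was that of Thy1, a surface protein of T cells and of some fibroblasts, which was higher at 98.8 ± 33.6 against 39.2 ± 22.8 CPM (edgeR adjusted p = 0.0845). Its groups overlapped. The regulatory T cell factor gene Foxp3 was at 8.18 ± 1.17 and 8.27 ± 1.26 CPM (log2 fold change 0.01).

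Among 18 genes of T cell subsets and homing, 3 fell (against 3.29% of all genes). Klf2, a transcription factor gene of resting T cells and of endothelium, fell from 102 ± 13.2 to 37.7 ± 3.85 CPM (SD, n = 3; log2 fold change -1.43 ± 0.16, SE; edgeR adjusted p = 0.00302). It passed in each of the 6 fits with 1 library left out (adjusted p of 0.0256 or less) and without both libraries with muscle transcripts (0.0148). S1pr1, which encodes the sphingosine 1-phosphate receptor that lets lymphocytes leave lymphoid organs and is also made by endothelium, fell from 239 ± 52.7 to 117 ± 27.6 CPM. Gata3, a factor gene of type 2 helper T cells and innate lymphoid cells, fell from 14.4 ± 6.71 to 4.41 ± 1.87 CPM. S1pr1 and Gata3 no longer passed without control replicate 2, control replicate 3, CCSP/TGFalpha replicate 1 or CCSP/TGFalpha replicate 2 (edgeR adjusted p up to 0.147 and 0.166), and without both libraries with muscle transcripts (0.0562 and 0.0623).

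The NK receptor list held 23 tested genes, of which 2 fell (against 3.29% of all genes) and 10 had all CCSP/TGFalpha libraries below all controls (against 15.5% of all genes). Klrg1, an inhibitory receptor gene of mature NK and effector T cells, fell from 4.85 ± 0.894 to 2.19 ± 0.129 CPM, and Klri2, a killer lectin-like receptor gene, from 4.70 ± 0.851 to 1.89 ± 0.401 CPM. Each call was lost in every fit with 1 library left out (edgeR adjusted p from 0.0739 to 0.169 and from 0.0579 to 0.172). Klrb1c, which encodes NK1.1, was at 22.5 ± 5.12 and 13.0 ± 3.36 CPM with no overlap, and Klrk1, which encodes NKG2D, at 5.07 ± 1.55 and 2.59 ± 0.112 CPM (edgeR adjusted p = 0.0867 and 0.0947). Tyrobp, an adaptor gene that myeloid cells also express, was at 69.4 ± 28.2 and 81.3 ± 26.2 CPM. Receptor genes of the Klr families are close copies of each other, so that reads may be split between them or counted for several of them.

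Of 14 tested genes of the other cytotoxic granule list, 1 fell (against 3.29% of all genes). Stx11, a syntaxin gene for the release of granules, fell from 27.2 ± 5.60 to 14.9 ± 1.67 CPM (edgeR adjusted p = 0.036), and of the 6 fits with a single library left out it held only in the one that dropped control replicate 1 (from 0.067 to 0.141 in the others). Fasl, the gene of Fas ligand, was at 3.35 ± 1.32 and 1.24 ± 0.539 CPM with no overlap between groups (edgeR adjusted p = 0.0964). The granzyme genes Gzmd, Gzme, Gzmf, Gzmg and Gzmn had 0 counts in all 6 libraries, which allows up to 0.120 to 0.137 CPM in a library. Gzmk and Gzmm were too low to be tested, with 19 and 22 counts over the 3 controls and 8 and 8 over the 3 CCSP/TGFalpha libraries.

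Of 18 genes of costimulation and checkpoints, 1 fell (against 3.29% of all genes). Icosl, the ligand gene of the costimulator ICOS, fell from 37.4 ± 4.94 to 22.6 ± 2.54 CPM (edgeR adjusted p = 0.0381), and its call was lost in every fit with 1 library left out (0.0558 to 0.124). The ligand genes of CD28 were at 3.92 ± 1.19 and 1.85 ± 1.37 CPM for Cd80 and at 20.6 ± 7.67 and 16.3 ± 5.25 CPM for Cd86, and neither passed. Ctla4, whose product competes with CD28 for these ligands, was at 4.38 ± 2.42 and 1.66 ± 1.23 CPM (edgeR adjusted p = 0.189). Of 19 tested ligand and cytokine genes 1 fell (against 3.29% of all genes). Ccl21a, a chemokine gene that draws CCR7-bearing T cells, went from 35.8 ± 8.40 to 16.5 ± 3.84 CPM (edgeR adjusted p = 0.0283). It no longer passed without control replicate 2, control replicate 3, CCSP/TGFalpha replicate 2 or CCSP/TGFalpha replicate 3 (0.0626 to 0.10). Ccl21a has near-identical copies, and reads may be split between them or counted for each. H2-T23, the gene of the ligand bound by CD94 with its NKG2 partners, was at 320 ± 66.8 and 277 ± 16.7 CPM.

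**Figure D4:**
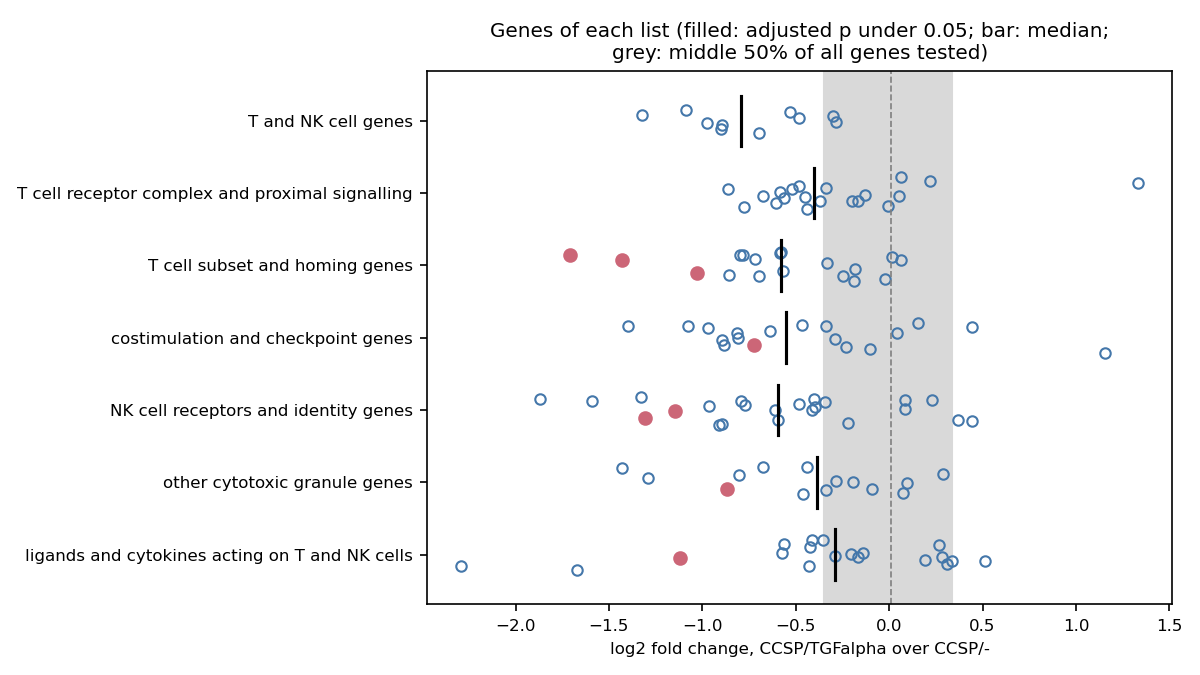
Log2 fold change, CCSP/TGFalpha over CCSP/- (horizontal axis), of each tested gene in the 10 T and NK cell genes and in 6 further lists; filled points passed at an adjusted p under 0.05, black bars are list medians and the grey band is the middle 50% of all genes tested. The 8 filled points all lie below 0, and none is among the 10 genes of the top row.

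Markers of other cell types moved with the groups. The summed level of 10 endothelial genes was 2514 to 4390 CPM in controls against 1278 to 2278 CPM in CCSP/TGFalpha lungs. Of the 10, 5 fell (against 3.29% of all genes), led by Tek, the angiopoietin receptor gene (edgeR adjusted p = 0.0249), Tspan7 (0.0337) and Pecam1 (0.035). These 3 no longer passed without control replicate 2, control replicate 3, CCSP/TGFalpha replicate 1 or CCSP/TGFalpha replicate 2 (edgeR adjusted p up to 0.116, 0.139 and 0.143). The summed level of 7 red cell genes was 17356 to 39882 CPM in controls against 7268 to 12798 CPM in CCSP/TGFalpha lungs. Of the 7, 4 fell (against 3.29% of all genes), the globin genes Hba-a1, Hba-a2, Hbb-bs and Hbb-bt, which are near-identical copies in pairs. The counts of Hba-a1 and Hba-a2 were equal in all libraries but CCSP/TGFalpha replicate 2 (39514 and 39510). Those of Hbb-bs and Hbb-bt were close (124168 and 122190 in control replicate 1). The 4 calls are therefore not separate measurements, and the sum appears to take shared reads more than once. Of the single-library fits, all 4 passed only in the one without control replicate 1 (edgeR adjusted p of Hbb-bt up to 0.142 in the others). Of 10 epithelial genes, 2 fell (against 3.29% of all genes), and the summed levels were 14313 to 19705 and 14018 to 16012 CPM. Scgb1a1, the gene of CCSP itself, fell from 4732 ± 1890 to 1894 ± 313 CPM and Hopx from 484 ± 215 to 219.7 ± 26.6 CPM. Of the 10, 7 had a fold change below 0 (against 49.1% of all genes). Epcam was higher with no overlap between groups, at 106 ± 3.85 and 142 ± 21.6 CPM (edgeR adjusted p = 0.132). Scgb1a1 passed only in the fit that dropped control replicate 2 and Hopx in no single-library fit (edgeR adjusted p up to 0.165 and 0.152). Of the muscle genes 0 of 9 tested passed, and 0 at an unadjusted p under 0.05, with Actn3 at the smallest edgeR adjusted p (0.644). The 3 genes whose profile over the 6 libraries was most like that of Gzma, among 15049 genes at 1 CPM or more, were Pcbp3, Tm4sf1 and Ecscr, at root mean square distances of 0.09, 0.10 and 0.10 in log2 units. The part of endothelial and blood content in the levels of the T and NK cell genes was not tested.

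Summed levels of B cell, all-leukocyte, macrophage, dendritic cell and neutrophil genes overlapped between the groups. Chil3 made up most of the macrophage sum, and Tcf4 and Itgax most of the dendritic cell sum. The mean log2 level of the 10 dendritic cell genes, which weighs each gene alike, did not overlap. Relative to the control mean it was -0.04 to 0.03 in controls and -0.86, -0.14 and -0.49 in CCSP/TGFalpha replicates 1 to 3 (median log2 fold change -0.51). For 10 B cell genes the sum was 145 to 191 CPM in controls and 76.6, 187 and 124 CPM in CCSP/TGFalpha replicates 1 to 3, with 0 of 10 passing by edgeR and 2 lower at an unadjusted p under 0.05 (smallest adjusted p 0.129, Fcer2a). All 10 B cell genes were lowest of the 6 libraries in CCSP/TGFalpha replicate 1 and highest of the group in replicate 2, the library order seen for Cd3e, Cd4 and Cd8a. For 10 genes of all leukocytes the sums were 1238 to 1594 and 954 to 1429 CPM, for 10 macrophage genes 5412 to 17322 and 2303 to 15336 CPM, for 10 dendritic cell genes 676 to 768 and 418 to 769 CPM, and for 7 neutrophil genes 133 to 218 and 102 to 162 CPM (Mmp9 with the smallest edgeR adjusted p, 0.159). Of the 10 dendritic cell genes 2 fell (against 3.29% of all genes), Clec9a from 53.1 ± 16.5 to 16.7 ± 5.92 CPM and Cd209a from 12.2 ± 2.19 to 5.0 ± 1.93 CPM. Of the 10 macrophage genes 1 rose (against 5.03% of all genes), Fcgr1, from 4.88 ± 0.653 to 16.4 ± 3.73 CPM. A fold change below 0 was found for 6 of the 10 macrophage genes (against 49.1% of all genes), with a median log2 fold change of -0.095. Clec9a no longer passed without control replicate 2, control replicate 3, CCSP/TGFalpha replicate 1 or CCSP/TGFalpha replicate 2 (edgeR adjusted p up to 0.10), and Cd209a passed only in the single-library fit that dropped CCSP/TGFalpha replicate 3 (up to 0.138 in the others).

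Of 4 thymocyte genes tested none passed, and 0 had an unadjusted p under 0.05 in edgeR (smallest adjusted p 0.343, Ccr9). Rag2 had 0 counts in all 6 libraries, and Rag1 had 21 counts over the controls and 0 over the CCSP/TGFalpha libraries. Innate lymphoid and gamma delta T cell genes went both ways. Their summed level was 175 to 199 CPM in controls against 206 to 314 CPM in CCSP/TGFalpha lungs. Maf and Rora made up most of this sum, and Rora was at 97.1 and 98.5 CPM on average in the 2 groups. A fold change below 0 was found for 6 of the 9 tested genes (median log2 fold change -0.32). The mean log2 level of the list relative to the control mean was -0.07 to 0.06 in controls. It was -0.52, -0.25 and -0.45 in CCSP/TGFalpha replicates 1 to 3. Of 9 tested, 1 rose (against 5.03% of all genes) and 1 fell (against 3.29%). Maf, a transcription factor gene of several leukocytes, rose from 37.3 ± 8.95 to 113 ± 34.4 CPM (edgeR adjusted p = 0.012, lost without control replicate 2 at 0.0656). Il5, a type 2 cytokine gene, fell from 47 counts over the controls to 2 over the CCSP/TGFalpha libraries, a ratio of 24.6 with a 95% counting interval of 6.43 to 209, and its call was lost in every fit with 1 library left out (0.071 to 0.153). Among 9 tested mast cell and basophil genes, which matter here because mast cells can make granzyme B, Mcpt2 rose from 0 counts to 129 (at least 41.1-fold higher, against a floor of 3 counts over the control group) and Tpsab1 from 5 counts to 88. The summed level of the mast cell and basophil genes was 266 to 331 CPM in controls against 148 to 221 CPM in CCSP/TGFalpha lungs. Kit and Hdc (118 ± 17.4 and 108 ± 18.5 CPM) made up most of this sum. Of the 9 tested mast cell and basophil genes, 2 rose (against 5.03% of all genes) and 1 fell (against 3.29%). The 9 had a median log2 fold change of 0.54, and 4 of them, Kit, Hdc, Cpa3 and Ms4a2, were below 0. Relative to the control mean, the mean log2 level of the 9 was -0.49 to 0.53 in controls. It was 0.87, 1.21 and 0.77 in CCSP/TGFalpha replicates 1 to 3. Kit fell from 179 ± 37.1 to 58.6 ± 22.9 CPM. Mcpt2, Tpsab1 and Kit no longer passed without control replicate 2, control replicate 3 or CCSP/TGFalpha replicate 2 (edgeR adjusted p up to 0.182). Mcpt2 and Tpsab1 also no longer passed without CCSP/TGFalpha replicate 1, nor did Tpsab1 without CCSP/TGFalpha replicate 3. The part of mast cells in the level of Gzmb was not tested.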

How the data were processed

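Whole lung RNA was sequenced in 2 groups of 3 libraries. A single count table was deposited by the authors, with whole numbers for 24061 Entrez gene IDs with no normalization. The submitters' processing notes name bcl2fastq, CASAVA 1.8, TopHat, DESeq and the build mm10; the counter, its strand setting and the annotation are not given in the sources used here. Symbols and positions came from a RefSeq table on GRCm38.p6, which named 23976 IDs. The 85 others stayed in totals and tests. Exon lengths came from GENCODE M21. No 2 libraries of a group were duplicates (chi-square per degree of freedom of 46.6 or more).

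The main test was edgeR 4.0.16 in R 4.3.3: quasi-likelihood F test, TMM scaling, expression filter by group, group as the only term, Benjamini-Hochberg adjustment over 16089 genes, threshold 0.05. The filter kept all 10 genes described. SEs were derived from the coefficient and the F statistic, and intervals cover 95%. Means carry the SD over 3 libraries. Counting intervals and floors (3 counts) cover counting error only. The step was tested on simulated counts.

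The members and the 18 lists were chosen with earlier results of these data known. Named genes are the 10 members, the called genes of each T or NK list (up to 6) and of each other list (up to 3), or else the gene with the smallest adjusted p. The 3 genes most like a member were sought for the member with the smallest adjusted p. Cd247, Cd8b1, Zap70, Cd3d, Cd3g, Lck, Foxp3, Klrb1c, Klrk1, Tyrobp, Fasl, the low granzyme genes, Cd80, Cd86, Ctla4, H2-T23, Rag1, Rag2, Hbb-bt, Sftpc, Epcam, Cpa3 and Ms4a2 were chosen after their values were seen. So were Rora, Chil3, Tcf4, Itgax and Hdc, which are named for their share of a sum. Alternatives were DESeq2 1.42.0 and its size factors, library totals, other filters, limma-voom (limma 3.58.1), a replicate block, a robust fit, leaving out the 20 most abundant genes and each library in turn, and, added after seeing the data, leaving out both libraries with muscle transcripts.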

Additional observations from a re-analysis of the deposited data

How the results depend on the processing

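Over the 16 alternatives the log2 fold change of the 10 genes stayed below 0 in 158 of 160 values. The 2 exceptions were Cd4 without CCSP/TGFalpha replicate 1 (0.092, with -1.06 as the lowest value with 1 library left out) and Cd4 without both libraries with muscle transcripts (0.18). The number of the 10 genes called lower, 0 in the main test, was 3 by DESeq2 and 1 without both muscle libraries, and 0 to 2 with 1 library left out. No count of the 10 called higher was above 0 in any of them. Over all genes, 810 rose and 530 fell, against 1281 and 1225 by DESeq2, 307 and 166 without both muscle libraries, and 204 to 606 and 34 to 482 with 1 library left out; fewer libraries were fitted there. Whether replicate numbers pair the libraries could not be settled. Same-numbered libraries deviated together with correlations of 0.42, -0.05 and 0.22, against -0.49 to 0.38 for libraries of different number. Replicates 1 share the muscle transcripts. With the replicate block 1 of the 10 genes was called (Cd28, -1.17, edgeR adjusted p = 0.0386), and 1470 genes were called in all, against 1340.

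Calls in the 6 further lists moved by more than 1.5 times in these cases. T cell receptor genes that rose went from 0 to 1 by DESeq2 and without control replicate 2. Homing genes that fell went from 3 to 1 at the least, costimulation genes from 1 to between 0 and 4, NK genes from 2 to between 0 and 4 (0 with no filter, 4 by DESeq2, 1 with the block), granule genes from 1 to between 0 and 3, and ligands from 1 to between 0 and 2 (2 by DESeq2, limma-voom and the block). The ratio of Cd4 to Cd8a changed sign with single libraries left out (group difference from -0.32 to 0.33, against 0.06), as did that of Ncr1 to Cd3e (-0.99 to 0.12, against -0.60); that of Cd3e to Ptprc stayed between 0.27 and 0.50. The share of rises among calls was 60.4% in the main test and 51.1% by DESeq2. No scaling moved the median of all genes by more than 0.1. With 41 to 1242 counts a library for the 10 genes, the spread between libraries rather than counting sets the width of the intervals.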
